A study of Mus musculus with 15 samples.

Results

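The skeletal muscle genes described here are 45 genes of the contractile apparatus, calcium handling and energy supply of striated muscle fibers, taken by symbol from a table of 40481 genes measured in RPE/choroid complex, the pigment epithelium and vascular layer behind the mouse retina. The members were 14 genes typical of fast fibers, 9 typical of slow fibers, 3 myosins of extraocular or developing muscle and 19 genes that both fiber types use. Of the 45, 44 were among the 17991 genes that passed the filter on low counts. The light chain gene Myl3 did not pass. The label of the group names extraocular muscle. Myh13, the myosin heavy chain that marks extraocular muscle, had the lowest level per kilobase of the 7 myosin heavy chains. The genes are called skeletal muscle genes here, and which muscle their transcripts came from was not tested. Acta1, which both fiber types use, had the highest level, and the most abundant fiber-specific members were fast fiber genes.

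The study sequenced 7 control and 8 INK-ATTAC libraries. All mice carried Abca1 and Abcg1 alleles flanked by loxP sites and LysM-Cre, a recombinase expressed mainly in cells of the myeloid lineage, so the controls carried this deletion as well. The INK-ATTAC group also carried a transgene that places an FKBP-caspase 8 fusion under the p16Ink4a promoter, and AP20187 pairs the fusion protein and triggers death of cells that express it. Every library is labelled with intraperitoneal AP20187, and dosing on alternate days over 3 months is described for the INK-ATTAC mice. The question of the comparison is what differs in this tissue once p16Ink4a-positive cells are targeted. Ages and sexes are not in the labels used here, and separate animals are not stated for the libraries, so p-values measure the spread between these libraries. Fold changes are INK-ATTAC against control throughout.

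Total counts per library ran from 39121503 to 65065950. RPE markers summed to 67079 to 89204 CPM (counts scaled to the size of each library) in controls and 74096 to 100733 CPM in INK-ATTAC libraries, so the labelled pigment epithelium was well represented. Cdkn2a, the gene that encodes p16Ink4a, had 0 to 4 counts per library and 13 in all, too few to check the labels. edgeR's quasi-likelihood test called 0 of 17991 genes at an adjusted p under 0.05 (percent called 0.0%, lowest adjusted p 0.515), with 745 genes at an unadjusted p under 0.05. DESeq2 called 6 genes and limma-voom 0.

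Skeletal muscle fibers contract when myosin heavy chains of the thick filament pull on actin of the thin filament, a step that calcium released from the sarcoplasmic reticulum switches on through the troponin complex. Fast and slow fibers build the same machine from different genes for myosin, troponin, calsequestrin and other parts, and developing fibers use embryonic and neonatal myosins. The muscles that move the eye attach to the outside of the globe and mix fast fibers with slow, developmental and extraocular myosins.

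Promoters are shown for 5 members whose values the results turn on: Acta1, the most abundant member, and the fast fiber genes Myh4, Mylpf and Atp2a1, which move with it across libraries, beside Myh13, the extraocular myosin at the lowest level of the heavy chains. Each is the 250 bases before the annotated start from RefSeq (GRCm38.p6), 5′ to 3′ on the gene's strand. Capitals mark CAGCTG, the E-box that myogenic factors favor, TATAAA on either strand, and the CArG box, the site of serum response factor. Acta1 lies at chr8:123894776-123895025 (minus strand), Myh4 at chr11:67237562-67237811 (plus), Mylpf at chr7:127211358-127211607 (plus), Atp2a1 at chr7:126463074-126463323 (minus) and Myh13 at chr11:67326853-67327102 (plus).
Acta1: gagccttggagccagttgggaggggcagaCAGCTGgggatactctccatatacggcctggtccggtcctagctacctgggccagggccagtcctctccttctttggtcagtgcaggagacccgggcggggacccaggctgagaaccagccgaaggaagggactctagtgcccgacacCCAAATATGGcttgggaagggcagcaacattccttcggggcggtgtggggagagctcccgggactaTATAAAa
Myh4: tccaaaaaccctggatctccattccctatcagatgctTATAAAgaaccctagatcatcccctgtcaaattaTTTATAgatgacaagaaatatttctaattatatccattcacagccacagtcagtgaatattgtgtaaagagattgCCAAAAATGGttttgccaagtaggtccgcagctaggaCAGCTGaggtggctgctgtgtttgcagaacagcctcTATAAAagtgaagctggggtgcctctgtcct
Mylpf: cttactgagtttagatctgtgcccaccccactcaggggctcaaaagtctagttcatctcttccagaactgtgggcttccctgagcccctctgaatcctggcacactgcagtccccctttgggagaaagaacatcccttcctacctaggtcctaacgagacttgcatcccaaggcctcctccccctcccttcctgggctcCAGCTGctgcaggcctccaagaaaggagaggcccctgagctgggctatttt
Atp2a1: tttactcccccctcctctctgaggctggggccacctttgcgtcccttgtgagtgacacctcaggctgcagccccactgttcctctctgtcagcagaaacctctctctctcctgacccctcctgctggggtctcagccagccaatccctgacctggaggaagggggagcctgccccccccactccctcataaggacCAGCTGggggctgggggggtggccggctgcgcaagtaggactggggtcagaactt
Myh13: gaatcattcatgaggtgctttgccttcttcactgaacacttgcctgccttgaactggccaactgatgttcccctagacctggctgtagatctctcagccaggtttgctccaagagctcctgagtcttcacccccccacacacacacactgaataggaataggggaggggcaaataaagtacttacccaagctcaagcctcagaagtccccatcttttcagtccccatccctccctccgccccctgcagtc

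Of the genes shown, 4 had CAGCTG. Its first base was 221 bases before the start in Acta1, 67 in Myh4, 51 in Mylpf and 55 in Atp2a1. These 4 are not the most abundant members as a set. Myl1, Eno3 and Pvalb had higher levels per kilobase than Myh4 and Atp2a1, and of them Myl1 had CAGCTG while Eno3 and Pvalb did not. Whether the motif goes with the level was not tested. A CArG box stood 73 bases before the start of Acta1 and 104 before that of Myh4. The Myh13 window held no capitalised motif, which says only that these letters are not in this window. RefSeq entries were found for 36 of the 45 members, with 43 promoters between them. CAGCTG was in 18 of the 43 (41.9%), against 13% of 32851 promoters of all genes. CANNTG, the general E-box that includes CAGCTG, was in 83.7% against 66.2%, and TATAAA in 18.6% against 12.4%. The CArG box was in 11.6% (5 promoters) against 1.47%. The MEF2 motif was in 6.98% (3 promoters, of Myoz2, Ttn and Xirp2) against 0.508%. All motifs were sought on both strands, and a match is a description of the letters, not a bound site.

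Muscle transcripts were a small and very uneven share of these libraries. The 45 genes together took 0.0583% of all counts in the lowest control library and 0.412% in the highest, with a mean of 0.211% ± 0.124 (SD, n = 7). In the INK-ATTAC group they took 0.125% to 0.557%, with a mean of 0.366% ± 0.151 (SD, n = 8). The ranges of the groups overlap over most of their length. In a bulk sample, fewer muscle fibers and less muscle RNA per fiber cannot be told apart.

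Most members went up and down together from library to library. Control 2 was the lowest library for 32 of the 44 tested members, and control 7 for 6 more. The highest library was INK-ATTAC 8 for 14 members, INK-ATTAC 1 for 13 and INK-ATTAC 2 for 11. The Pearson correlation of a member's log2 CPM with the mean of the other members over the 15 libraries had a median of 0.90, and 30 of the 44 were above 0.8. Among 17947 other genes the correlation with the members' mean had a median near 0 (-0.006), and 104 were above 0.8. The values compared come from the same libraries and share their depth, so the correlations are descriptions. Within a group the members' SD had a median of 0.96 on the log2 scale, against 0.27 for all genes tested, and 24 members were above the 95th percentile of all genes.

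**Figure D1:**
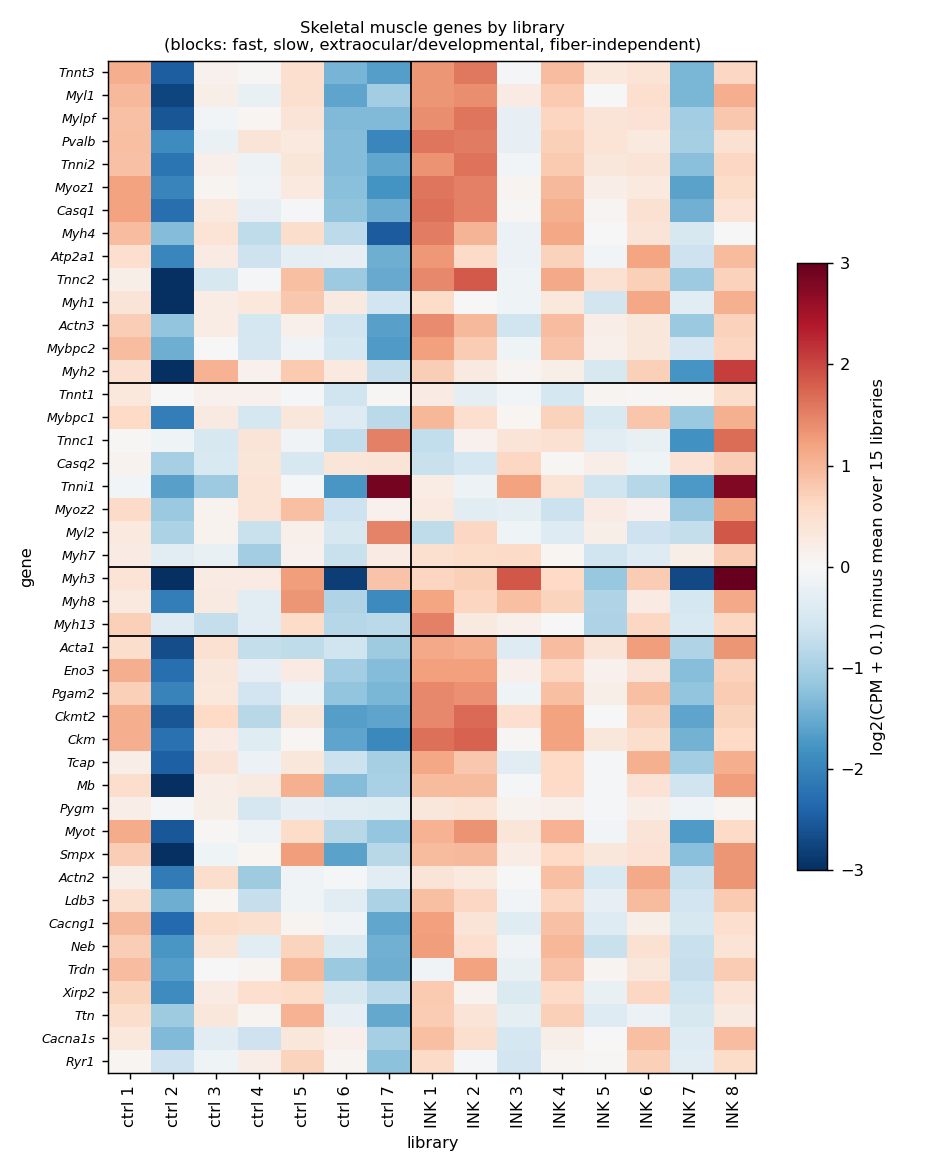
Level of each of the 44 tested skeletal muscle genes (rows) in each of the 15 libraries (columns), as log2(CPM + 0.1) minus the gene's mean over the libraries, with control libraries (ctrl) left of the vertical line and INK-ATTAC libraries (INK) right of it. Control 2 is the lowest column for 32 genes, and Tnni1, Tnnc1 and Myl2 are highest in control 7 and INK-ATTAC 8.

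In the comparison of the groups, 42 of the 44 members had a positive fold change and 2 a negative one, Myoz2 (-0.07) and Tnnc1 (-0.01). Their median log2 fold change was 0.68, against -0.001 for all genes tested, of which 49.8% were positive. None passed the adjusted threshold: every member had an adjusted p of 1.00 (edgeR quasi-likelihood). At an unadjusted p under 0.05 there were 11 members (25.0%), all higher in the INK-ATTAC libraries, where 2.2% of all genes were higher at that level, 1.94% lower and 4.14% either. Since the members follow one another from library to library, these 11 are not 11 separate observations. The 11 were Acta1, Ldb3, Atp2a1, Pgam2, Pygm, Tnnc2, Mybpc2, Cacna1s, Ckm, Tcap and Actn2. No member had group ranges that did not overlap, as 0.0222% of all genes did. For 5 members, Acta1, Atp2a1, Ldb3, Tcap and Pgam2, 5 of the 8 INK-ATTAC libraries were above the highest control. How many of all genes have this pattern was not counted, so it cannot be read as particular to the members. The count of 11 rested on single libraries. It was 24 without control 1, 21 without INK-ATTAC 7 and 7 without control 6 or INK-ATTAC 4. It was 6 without control 2, control 4, control 7, INK-ATTAC 1 or INK-ATTAC 2. The number over all genes in these fits is not given here.

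**Figure D2:**
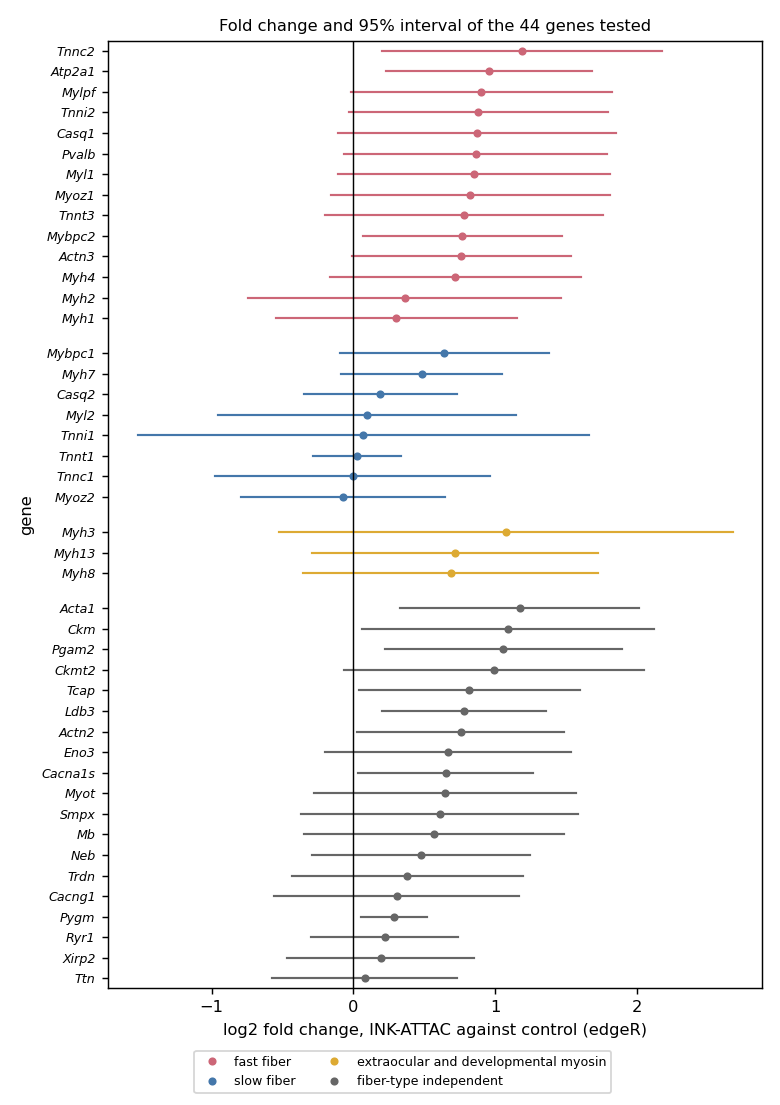
Log2 fold change of INK-ATTAC against control (points) with the 95% confidence interval (lines) from edgeR for the 44 tested genes, colored by fiber class. The interval lies above 0 for 11 genes, from Pygm (0.05 to 0.52) to Tnnc2 (0.20 to 2.18), and the slow fiber genes lie between -0.07 and 0.64.

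By fiber class, all 14 fast members were positive with a median log2 fold change of 0.84, and 3 of them (Atp2a1, Tnnc2 and Mybpc2) were among the 11. All 19 fiber-independent members were positive with a median of 0.65, and 8 were among the 11. That class holds genes that both fiber types use, and whether fast and slow fibers use them equally was not assessed. The 8 tested slow members had a median of 0.08, with 6 positive, 2 negative and none among the 11. In DESeq2 the slow gene Tnni1 had a log2 fold change of 1.30 (unadjusted p 0.041), against 0.07 in edgeR. Without control 7 its value in edgeR was 1.38, and the cause of the gap between the methods was not tested. That slow median turned on single libraries, being 0.49 without control 7 and -0.22 without INK-ATTAC 8. Myh3, Myh8 and Myh13 were positive with a median of 0.71, and none was among the 11. Without control 5 the median of these 3 was 1.16. Whether the group effect differs between fast and slow genes was not tested.

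Acta1, which encodes the actin of the skeletal muscle thin filament, had the highest level of the members, with a mean of 290.1 CPM per kilobase of exon. Its CPM was 55.2 in the lowest control, 215 at the median and 508 in the highest. In the INK-ATTAC libraries it was 187, 706 and 875. INK-ATTAC 3, 5 and 7 lay within the control range, and the other 5 INK-ATTAC libraries lay above it. The log2 fold change was 1.17 (SE 0.40, 95% interval 0.33 to 2.01, adjusted p 1.00 in edgeR). The gene spans chr8:123891769-123894751 and shares no exon with another annotated gene.

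Troponin T binds the complex to tropomyosin, troponin I holds the filament off and troponin C takes up calcium, and each has a fast and a slow gene. Tnnt3, fast troponin T, was at 45.02, 257 and 531 CPM (lowest, median and highest control) and at 97.1, 359 and 747 CPM in the INK-ATTAC libraries. Its log2 fold change was 0.78 (SE 0.47). Its slow counterpart Tnnt1 was at 6.19, 9.67 and 11.8 CPM in controls and at 6.51, 9.74 and 13.7 CPM in INK-ATTAC libraries, a log2 fold change of 0.03 (SE 0.15). Tnnt1 was thus almost level across libraries in which Tnnt3 ranged 16.6-fold, and its correlation with the other members was 0.23. Tnnc2, fast troponin C, was at 0.935, 5.83 and 15.4 CPM in controls and at 3.81, 13.3 and 29.6 CPM in the INK-ATTAC group, with a log2 fold change of 1.19 (SE 0.47). Of its annotated exons 592 bases are shared with Ube2c, and with the counting not given in the sources used here, reads could have been assigned to either. Tnni2, fast troponin I, had a log2 fold change of 0.88 (SE 0.43) and nebulin (Neb), which spans the thin filament, 0.48 (SE 0.37).

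Myosin light chains stabilise and regulate the lever of the myosin head. Myl1, an alkali light chain of fast fibers, was at 45.9, 267 and 608 CPM in controls and at 120.1, 489 and 825 CPM in INK-ATTAC libraries. Mylpf, the fast regulatory light chain, was at 23.1, 128 and 250.1 CPM and at 66.3, 199 and 416 CPM. Their log2 fold changes were 0.85 (SE 0.46) and 0.90 (SE 0.44), with both sets of ranges overlapping. The slow regulatory chain Myl2 lay between 0.208 and 2.08 CPM in the 15 libraries, with a log2 fold change of 0.10 (SE 0.50). Myl3, a slow and ventricular chain, had 12 counts in all controls and 40 in all INK-ATTAC libraries, of which INK-ATTAC 8 held 21, and none in 6 libraries. A count of 0 allows up to 3 counts, counting error only.

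**Figure D3:**
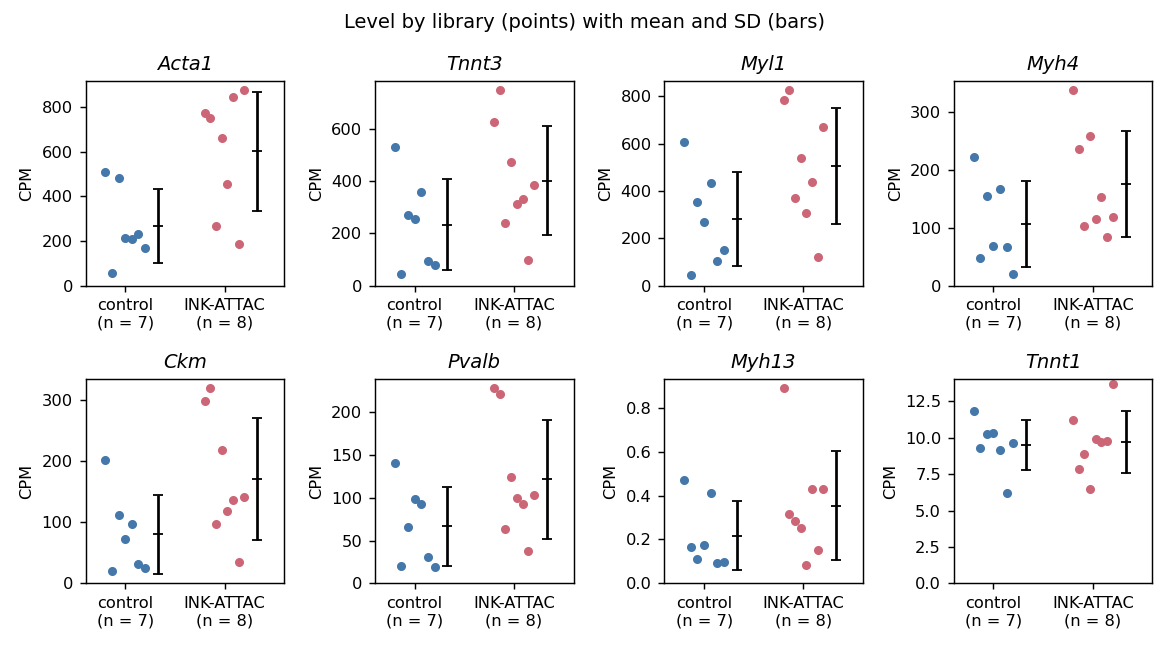
CPM of 8 skeletal muscle genes in each control (blue, n = 7) and INK-ATTAC (red, n = 8) library, with the group mean and SD as bars on a linear axis from 0. Fast and shared genes spread widely in both groups and overlap, as for Acta1 (55.2 to 508 and 187 to 875 CPM), while the slow gene Tnnt1 stays between 6.19 and 13.7 CPM.

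The 7 myosin heavy chains, the motors whose gene sets the speed of the fiber, were led by Myh4, the gene of the fastest (IIB) fibers. Myh4 was at 20.4, 68.2 and 222 CPM in controls and at 83.8, 136 and 338 CPM in the INK-ATTAC libraries, with a log2 fold change of 0.72 (SE 0.42). All 8 INK-ATTAC libraries were above the control median, and 3 were above the highest control. Myh1, of IIX fibers, was at 2.58, 37.5 and 54.8 CPM and at 21.3, 35.3 and 70.1 CPM, a log2 fold change of 0.30 (SE 0.40). Myh2, of IIA fibers, was at 0.540, 10.7 and 18.1 CPM and at 2.48, 10.2 and 37.2 CPM, a log2 fold change of 0.36 (SE 0.52). The medians of Myh1 and Myh2 were thus slightly lower in the INK-ATTAC group while their fold changes were positive, and control 2 was far below the other controls for both. Myh7, of slow fibers, stayed between 0.376 and 1.06 CPM with a median of 0.747 in controls and between 0.552 and 1.58 CPM with a median of 1.14 in INK-ATTAC libraries, a log2 fold change of 0.48 (SE 0.27).

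Embryonic, neonatal and extraocular myosins were present at low levels. Embryonic Myh3 was at 0.0208, 2.15 and 4.42 CPM in controls and at 0.191, 2.95 and 15.7 CPM in INK-ATTAC libraries, and its highest values were those of INK-ATTAC 8 and INK-ATTAC 3 (15.7 and 6.78 CPM). Its log2 fold change of 1.07 had an SE of 0.76. Neonatal Myh8 was at 0.166, 0.777 and 2.66 CPM and at 0.491, 1.66 and 2.44 CPM, a log2 fold change of 0.69 (SE 0.49). Extraocular Myh13 was at 0.0922, 0.166 and 0.469 CPM and at 0.0818, 0.299 and 0.890 CPM, a log2 fold change of 0.71 (SE 0.48), with INK-ATTAC 1 the highest. Per kilobase of exon the mean levels were 23.9 CPM for Myh4, 5.88 for Myh1, 1.64 for Myh2, 0.548 for Myh3, 0.109 each for Myh7 and Myh8 and 0.047 for Myh13. Myh1, Myh2, Myh3, Myh4, Myh8 and Myh13 lie side by side on chromosome 11 between 67078300 and 67371586 and are close copies of each other, so reads could have been split between them in counting.

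Expressed as shares of the 7 heavy chains per kilobase of exon, the fast myosins Myh1, Myh2 and Myh4 together made up 91.3% to 99.2% in controls (median 98.4%) and 92.1% to 99.0% in INK-ATTAC libraries (median 98.4%). The medians were the same to the digits given, while the sum of the heavy chains ranged from 8.16 to 45.8 CPM per kilobase in controls and from 18.5 to 66.4 in INK-ATTAC libraries. Within the fast myosins the balance varied by library: Myh4 was 41.6% in control 7 and 92.9% in control 2 (control median 70.2%), and 51.4% in INK-ATTAC 8 to 84.6% in INK-ATTAC 1 (median 78.3%). Myh1 took 4.77% to 40.7% in controls and 10.7% to 28.1% in INK-ATTAC libraries. In control 7 the order of Myh4 and Myh1 turned on the length used: per kilobase of coding sequence, chosen after seeing the data, Myh1 was 40.9% and Myh4 39.7%. Myh3 reached 6.78% in control 7 and 6.76% in INK-ATTAC 8. Myh13 stayed between 0.0524% and 0.316%, and slow Myh7 between 0.19% and 1.5%.

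**Figure D4:**
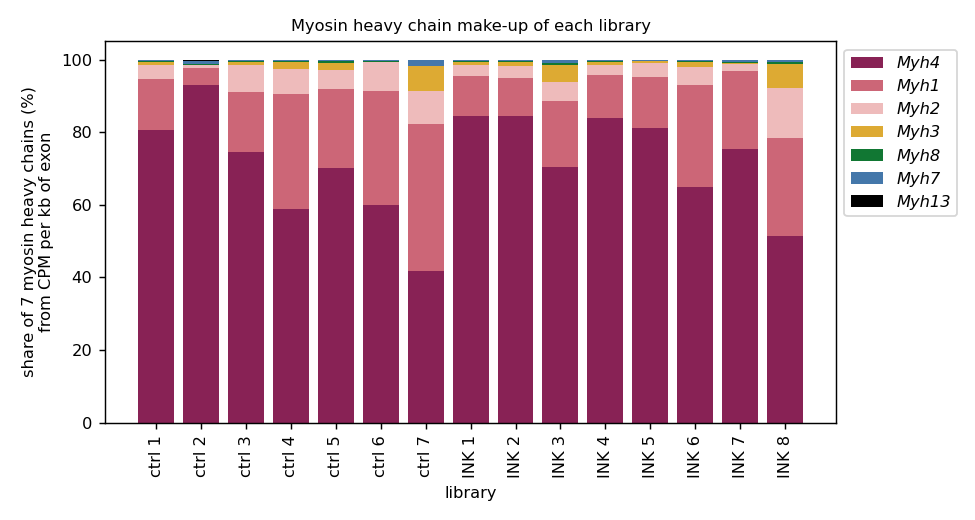
Share of each of 7 myosin heavy chains in their summed CPM per kilobase of exon (vertical axis, percent) for each library (control, ctrl; INK-ATTAC, INK). On exon length Myh4 is the largest share in every library, from 41.6% in control 7 to 92.9% in control 2 (on coding length Myh1 is above it in control 7, 40.9% to 39.7%), and Myh13 is at most 0.316%.

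Titin and the myosin-binding proteins C tie the thick filament in place and tune the cross-bridges. Mybpc2, the fast form, was at 4.58, 10.6 and 28.7 CPM in controls and at 10.6, 21.5 and 35.8 CPM in the INK-ATTAC group, a log2 fold change of 0.77 (SE 0.33). Mybpc1, the slow form, which fast fibers also express, was at 3.01, 9.86 and 19.8 CPM and at 6.00, 19.7 and 27.4 CPM, a log2 fold change of 0.64 (SE 0.35). Unlike the other slow genes, Mybpc1 followed the members closely (correlation 0.96). Titin (Ttn), the giant elastic protein, was at 42.6, 131 and 253 CPM in controls and at 88.9, 129 and 209 CPM in INK-ATTAC libraries, a log2 fold change of 0.08 (SE 0.31), and its highest library was control 5.

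Z-disc genes anchor the thin filaments at the ends of the sarcomere. Tcap, telethonin, which caps titin, was at 5.03, 24.7 and 36.2 CPM in controls and at 13.4, 45.4 and 61.9 CPM in INK-ATTAC libraries, a log2 fold change of 0.82 (SE 0.37). Myoz1, a calcineurin-binding protein of fast fibers, was at 9.35, 34.6 and 86.3 CPM and at 12.2, 50.4 and 114 CPM, a log2 fold change of 0.82 (SE 0.47). Ldb3, a PDZ-LIM protein that binds alpha-actinin, was at 4.96, 10.97 and 19.2 CPM and at 9.26, 21.4 and 26.6 CPM. Its log2 fold change of 0.78 (SE 0.28, 95% interval 0.20 to 1.36) had the lowest p of the Z-disc group, and INK-ATTAC ranges still overlapped the controls. Of the 9 Z-disc members 8 were positive, with a median of 0.76. The actin cross-linkers Actn2 and Actn3 were both at 0.76, Myot at 0.65, Smpx at 0.61, Xirp2 at 0.19 and the slow form Myoz2 at -0.07.

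Calcium handling genes carry the signal from the surface membrane to the filaments and back. Atp2a1, the SERCA1 pump that returns calcium to the reticulum of fast fibers, was at 16.4, 53.0 and 91.2 CPM in controls and at 41.4, 99.1 and 159 CPM in INK-ATTAC libraries. Its log2 fold change was 0.95 (SE 0.35, 95% interval 0.23 to 1.68), and 5 of 8 INK-ATTAC libraries exceeded every control. It shares 763 bases of exon with Rabep2 on the opposite strand. Pvalb, the soluble calcium buffer of fast fibers, was at 19.4, 65.5 and 141 CPM and at 37.7, 102 and 229 CPM, a log2 fold change of 0.86 (SE 0.44). Casq1, which stores calcium in the reticulum of fast fibers, was at 7.81, 31.8 and 87.9 CPM and at 13.99, 51.6 and 119 CPM, a log2 fold change of 0.87 (SE 0.47), while its slow and cardiac form Casq2 had 0.19 (SE 0.26) and the lowest correlation with the members, 0.04. The voltage sensor Cacna1s had a log2 fold change of 0.65 (SE 0.29), its subunit Cacng1 0.31, triadin (Trdn) 0.38 and the release channel Ryr1 0.22. All 8 were positive, with a median of 0.51.

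Energy supply genes recharge ATP and hold oxygen or glycogen reserves. Eno3, muscle enolase, was at 32.8, 132 and 335 CPM in controls and at 64.4, 227 and 369 CPM in INK-ATTAC libraries, a log2 fold change of 0.66 (SE 0.41). Pgam2, muscle phosphoglycerate mutase, was at 14.2, 38.3 and 94.1 CPM and at 25.0, 102 and 154 CPM, a log2 fold change of 1.06 (SE 0.40). Ckm, cytosolic creatine kinase, was at 19.9, 72.8 and 202 CPM and at 35.1, 139 and 319 CPM, a log2 fold change of 1.09 (SE 0.49). INK-ATTAC 7 was low for all 3 of these genes and lay inside the control range. Mitochondrial creatine kinase Ckmt2 had a log2 fold change of 0.99 and myoglobin (Mb) 0.57. Pygm, muscle glycogen phosphorylase, had a narrow spread, ranging 1.88-fold over the libraries (55.3 to 90.6 CPM in controls and 73.2 to 104 CPM in INK-ATTAC), and its log2 fold change of 0.29 (SE 0.11) was small and among the 11.

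Fast genes exceeded their slow counterparts in these libraries by large factors. Per kilobase of exon the median ratio over the 15 libraries was 571 for Mylpf to Myl2, 299 for Tnni2 to Tnni1, 252 for Myh4 to Myh7, 39.3 for Tnnt3 to Tnnt1, 33.1 for Myoz1 to Myoz2, 21.9 for Casq1 to Casq2 and 12.8 for Tnnc2 to Tnnc1. Mybpc2 and Mybpc1 were near parity (1.46), with the fast form higher in 14 of 15 libraries. For 7 of the 8 pairs the lowest ratio was in control 7, and for Tnnt3 to Tnnt1 it was in control 2. Control 7 had the second-lowest mean level of the fast genes and the second-highest of the slow genes.

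The slow genes Tnni1, Tnnc1 and Myl2 had their 2 highest values in control 7 and INK-ATTAC 8. Tnni1 was at 10.6 CPM in control 7 and 9.85 CPM in INK-ATTAC 8, against at most 3.26 CPM elsewhere. Their fold changes turned on these libraries. Without control 7 the log2 fold changes were 1.38 for Tnni1, 0.42 for Tnnc1 and 0.57 for Myl2, and without INK-ATTAC 8 they were -0.74, -0.45 and -0.47. With all libraries the log2 fold changes were near 0, at 0.07 for Tnni1, -0.01 for Tnnc1 and 0.10 for Myl2. Leaving out other single libraries reversed them too. Without control 2, Tnni1 was at -0.13 and Myl2 at -0.063, and without control 4, Tnnc1 was at 0.016. The sign of each of these 3 genes thus turned on which libraries were included, also in the counts by direction.

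**Figure D5:**
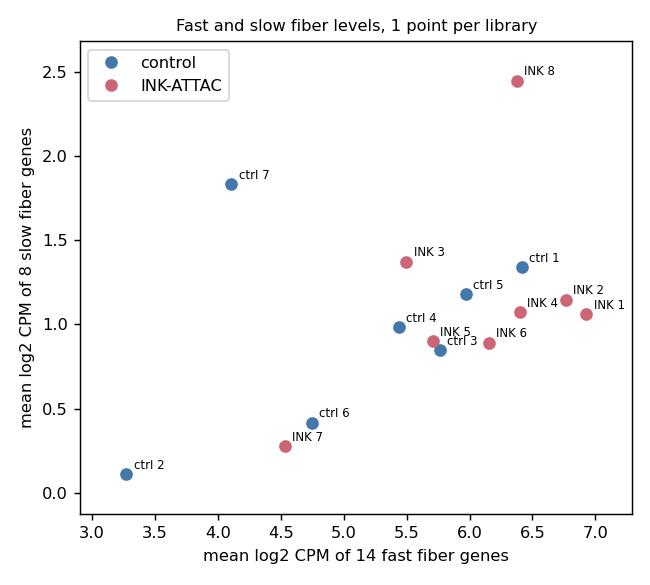
Mean log2 CPM of 14 fast fiber genes (horizontal) and of 8 slow fiber genes (vertical), with 1 point for each library, control in blue and INK-ATTAC in red. Control 2 is lowest on both axes (3.27 and 0.11), and control 7 (4.11 and 1.83) and INK-ATTAC 8 (6.38 and 2.45) have the highest slow means.

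Splitting the libraries by Xist, the X-inactivation transcript, gave 4 high and 3 low controls and 4 high and 4 low INK-ATTAC libraries. Of 43 members with a value in both classes 38 were positive in both and none was negative in both. The share of all genes positive in both is not given here. Since the members follow one another from library to library, these 38 are not 38 separate observations. Acta1 had a log2 fold change of 0.81 among low and 1.52 among high Xist libraries, and Tnnc2 1.85 and 0.48. A test of the difference (interaction term, edgeR) had no member at an unadjusted p under 0.05, where 4.77% of all genes were, and the lowest adjusted p of a member was 0.876.

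In the authors' deposited table, which covers 14442 genes, 41 members appear. All 41 have a positive log2 fold change, with a median of 1.29, where 48.7% of its genes are positive. The slow members Myl2, Myl3 and Tnnc1 and the extraocular myosin Myh13 are not in it, and Tnnc1 was negative in edgeR (-0.01). Of those 41 in the authors' deposited table, 32 have an unadjusted p under 0.05, all higher, against 4.07% of its genes, and none has an adjusted p under 0.05. Acta1 (1.64), Tnnc2 (1.96) and Atp2a1 (1.40) have the lowest adjusted p of the members in the authors' deposited table, 0.606. The table comes from the same libraries, so it is not a second observation.

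Lists of further muscle genes were read in the same fit. Of 40 further genes of the sarcomere, triad and muscle metabolism 36 were positive and 4 negative, with a median log2 fold change of 0.44 and 7 at an unadjusted p under 0.05, all higher. Among these were Unc45b, a myosin chaperone (0.51, SE 0.17), Hspb6, a small heat shock protein (0.54, SE 0.19), and Sgca, a sarcoglycan of the fiber membrane (0.94, SE 0.34). Of 7 tested neuromuscular junction genes all were positive with a median of 0.14, and the acetylcholine receptor subunit Chrna1 (0.57, SE 0.18) had the lowest p. Of 9 tested myogenic and satellite cell genes 3 were positive and 6 negative, with a median of -0.05, and Pax7, Myf5 and Myod1 had 17, 27 and 160 counts in all libraries together. The non-member genes most like the members' mean over the 15 libraries were Myf6 (correlation 0.99), Hrc, Klhl41, Apobec2, Fitm1, Cox6a2, Ramp1, Txlnb, Tmem182 and Itgb1bp2 (0.96).

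Markers of neighbouring tissues varied beside the members, and their part in the result was not tested. All 14 tested lens genes of 16 were positive with a median log2 fold change of 2.61, and 9 were at an unadjusted p under 0.05. The lens genes summed to 21.6 to 894 CPM in controls and 22.5 to 4354 CPM in INK-ATTAC libraries. With the lens level as a covariate the members' median was 0.38, with 4 at an unadjusted p under 0.05. The number over all genes in that fit is not given here. Rod photoreceptor genes were negative for 15 of 16 (median -0.25), summing to 845 to 2928 CPM and 487 to 2647 CPM. Smooth muscle genes were positive for 9 of 10 (median 0.21), summing to 325 to 644 CPM and 444 to 647 CPM, with Des and Lmod1 at an unadjusted p under 0.05. Des, desmin, is made by skeletal fibers too and is also 1 of the 7 counted in the sarcomere list. The log2 fold change was 0.48 for Des, 0.21 for Lmod1, 0.79 for Myocd, 0.45 for Actg2, 0.29 for Cnn1 and 0.21 for Myh11. It was 0.0041 for Acta2, 0.0049 for Smtn, 0.021 for Tagln and -0.0088 for Synm. Orbital fat genes were positive for 8 of 8 tested (median 0.15), tendon genes for 1 of 6 (median -0.04) and Schwann cell genes for 7 of 10 (median 0.08). Of 10 cardiac markers 4 were tested, 2 positive and 2 negative, with a median of -0.15. Actc1, cardiac actin, which skeletal muscle also makes, had a log2 fold change of 1.46 (unadjusted p under 0.05), Myl4 0.06, Tnni3 -0.36 and Ankrd1 -0.39. Among those not tested, the atrial and brain natriuretic peptide genes Nppa and Nppb had 9 and 19 counts in all.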

How the data were processed

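RNA-seq was measured in 15 libraries of RPE/choroid complex. Per the labels' protocols, RNA was purified on columns and cDNA amplified with SMARTer chemistry, which without molecular identifiers counts amplified copies, so floors cover counting error only. The submitters' processing notes name bcl2fastq, DRAGEN, edgeR and limma, with GRCm38. Of their versions, the counter, the strand setting and the annotation, nothing is given in the sources used here. The authors deposited raw read counts per gene, and a comparison table with log2 CPM, log2 fold change and p-value per gene, per the file headers.

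Of 40757 entries, 276 repeats with identical counts were collapsed. Counts were scaled with TMM, filtered with filterByExpr and tested, two-sided, with edgeR 4.0.16 quasi-likelihood (R 4.3.3) and Benjamini-Hochberg adjustment over 17991 genes, a test checked on simulated data. CPM are on TMM library sizes. Levels per kilobase use exon lengths of GENCODE GRCm38 gene models. Levels are given for each myosin heavy chain and, in each other role group, for the 2 members of highest level per kilobase and the member of lowest p. Levels of Ckm, Pygm, Tnnc2, Tnnt1, Tnni1, Myl2 and Ttn, and counts of Myl3, are given besides, chosen after their values were seen. Other lists name up to 3 genes of lowest p, and those of the cardiac list beyond these were chosen likewise. The smooth muscle list is given whole. The members and lists were chosen with earlier results of these data known. Alternatives were DESeq2 1.42.0, limma-voom 3.58.1 with and without quality weights, RLE or total-count scaling, other filters, covariates, Xist classes and leaving out each library. No library repeated another of its group (lowest chi-square per gene 30.4).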

Additional observations from a re-analysis of the deposited data

Results flagged for a closer look

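Of 88 combinations of a member and a group, 6 (6.82%) had a lowest library set apart from the rest of its group by more than Dixon's critical value, where chance sets apart about 1 in 20. The value is the gap to the nearest library over the range of the group, on log2 CPM. Control 2 stood apart for Myh1 (0.686, 2.58 CPM against 21.1 CPM in the nearest control) and for Myh2 (0.642, 0.540 against 5.25 CPM). Control 6 stood apart for Tnnt1 (0.605, 6.19 against 9.15 CPM). INK-ATTAC 7 stood apart for Myot (0.529, 11.5 against 35.4 CPM), Eno3 (0.5677, 64.4 against 173.5 CPM) and Smpx (0.574, 5.53 against 15.6 CPM).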

How the results depend on the processing

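No member passed an adjusted p of 0.05 in any of 29 other settings (lowest 0.71). For 37 of 44 members the direction reversed in no setting that gave a value, and 36 of these had a value in all (Myh13 had none under the stricter filter or in high Xist libraries). Genes called numbered 6 with DESeq2 and 2 with limma-voom with quality weights. Members at an unadjusted p under 0.05 numbered 11 as reported (745 of all genes) and 11 with DESeq2 (758 genes). With DESeq2, Tnni1 and Mylpf were among them in place of Tcap and Actn2. Members numbered 18 with limma-voom (781 genes) and 32 with quality weights (1068 genes, 5.94% of all genes). With the rod level as a covariate there were 5 and with the lens level 4. Libraries of low Xist alone gave 2 and libraries of high Xist alone gave 6. Leaving out 1 library gave 6 to 24. Numbers over all genes are not given here for the covariates, the Xist classes, 1 library left out or the block by description numbers. A changed count there cannot be read as a change particular to the members. With the replicate block by the number in the titles, 16 members and 734 of all genes were at that level, and no gene call changed. By the numbers in the descriptions, which match controls 1 to 7 with INK-ATTAC 2 to 8, a replicate block chosen after seeing the data gave 22 and again no gene call, with a members' median of 0.71. The labels name no shared source for either number. Correlations of deviations over 7 pairs were -0.10 to 0.29 by title, where 1 control correlated best with its own number, and -0.15 to 0.23 by description (2 pairs above 0.1), where 0 controls did, though all 7 pairs were of 1 Xist class. Neither number was taken to pair the libraries. The members' median was 1.18 with quality weights and 0.38 with the lens level, and 0.50 to 0.86 with 1 library left out. With the lens level, quality weights and 1 library left out, the median was 0.51, 1.42 and 0.64 to 1.14 for fast members, 0.35, 1.08 and 0.45 to 0.77 for fiber-independent members and 0.26, 1.63 and 0.55 to 1.16 for the extraocular and developmental myosins. The slow members' median was -0.10 with the lens level and -0.22 to 0.49 with 1 library left out. With coding length in place of exon length, chosen after seeing the data, fast myosins made up 98.0% at the median of both groups, and Myh1 exceeded Myh4 in control 7. Direction reversed for 7 members of small fold change. For Myl2 the log2 fold change was -0.037 with limma-voom, -0.087 with quality weights, -0.30 with the replicate block, -0.16 with the rod level and -0.21 with the lens level, and -0.47 to 0.57 with 1 library left out. For Myoz2 it was 0.17 with quality weights, 0.058 in high Xist libraries and -0.37 to 0.085 with 1 library left out. For Tnnt1 it was -0.058 with the replicate block by title and -0.025 by description, -0.28 in low Xist libraries and -0.062 to 0.080 with 1 library left out. For Tnnc1 it was 0.062 with the Xist class as a covariate, 0.34 in low Xist libraries and -0.45 to 0.42 with 1 library left out. For Tnni1 it was -1.02 with the lens level, -0.28 in high Xist libraries and -0.74 to 1.38 with 1 library left out. For the same gene it was 1.30 with DESeq2 and 1.40 in low Xist libraries, against 0.07 as reported. For Ttn it was -0.14 with the lens level, -0.27 in high Xist libraries and -0.076 to 0.31 with 1 library left out. For Myh2 it was -0.0045 with the lens level and -0.083 to 0.56 with 1 library left out. The cause was not tested. Counts of a few per library limit Myl3 and Myh13.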
